A study of Rattus norvegicus with 2 samples.

Results

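Isolated narrow H2Aub peaks were defined as peaks below 1000 bp in width that had no other listed peak within 100 kb on either side, measured from edge to edge, on chromosomes 1 to 20, with the first and the last peak of each chromosome left out. They numbered 1338 of the 17207 peaks called in ischemic rat myocardium, which is 7.78% (95% Wilson interval 7.39 to 8.19%). The list came from 1 H2Aub chromatin immunoprecipitation sequencing (ChIP-seq) library and 1 input library, the input being chromatin of the same kind sequenced without immunoprecipitation. Both libraries were from myocardium of male rats with 30 min of ligation of the left anterior descending coronary artery, which supplies much of the left ventricle. The labels give no strain, no age, no number of animals per library and no part of the ventricle. Neither a sham library nor a replicate was analysed here, so the values describe 1 ChIP library and no test between groups was run. Intervals on shares, medians and densities take the listed peaks as independent draws, and those on pileups take the fragments so. Both are called counting error here, and neither covers variation between libraries or animals.

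H2Aub is histone H2A with a single ubiquitin, attached to a lysine near the end of its tail. It is written by polycomb repressive complex 1 (PRC1), whose catalytic subunits are RING1A and RING1B, and it is removed by deubiquitinases such as BAP1. The mark is known mainly for its link to gene silencing, often in broad domains over developmental genes together with trimethylation of histone H3 lysine 27, and it also forms around sites of DNA damage. It is present at a low level over much of the genome, against which a peak caller lists only places that rise above the local background.

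The members, the isolated narrow peaks, were chosen by width and by distance to the next peak. Both come from the same peak calling as the fold enrichment, the q-value and the pileup. All of these values are therefore a description of the peaks and not evidence for a separate kind of peak. Of the 17207 peaks, 72 lay on X, 91 lay on unplaced scaffolds, 40 were the first or last of a chromosome and 1478 were at least 1000 bp wide. The other 15526 narrow peaks fell into 3 classes. The 1338 isolated peaks made up 8.62% of them (8.19 to 9.07%). Another 3198 peaks (20.6%) had their nearest neighbour between 10 and 100 kb away and are called intermediate here. The remaining 10990 peaks (70.8%) had a neighbour within 10 kb and are called clustered.

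**Figure D1:**
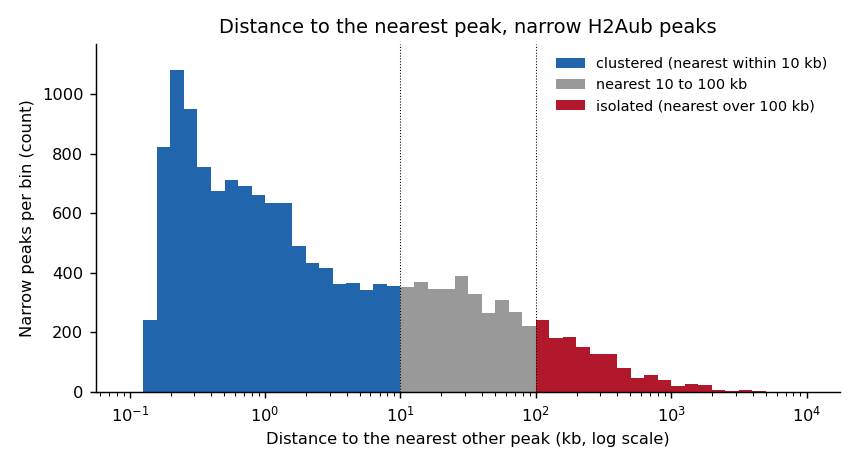
Number of narrow H2Aub peaks (y axis, count per bin) by distance to the nearest other peak (x axis, kb, log scale), stacked by class; dotted lines mark 10 and 100 kb. The counts fall off without a gap at 100 kb, and the 1338 isolated peaks in red reach from 100 kb to 5.69 Mb.

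The limit of 100 kb cut a continuous distribution. The nearest other peak was at a median of 216.1 kb from a member, and its 25th and 75th percentiles were 141.1 and 384.0 kb. In 610 members (45.6%) it lay within 200 kb, and in 97 members it lay beyond 1 Mb. The stretch without other peaks around a member, the left and the right gap together, had a median of 865.8 kb. Just inside the limit, a peak on chromosome 15 from 58555241 to 58555754 had its nearest neighbour at 100.09 kb and a fold enrichment of 7.44. The next was on chromosome 12 from 37670526 to 37671193, at 100.4 kb with a fold enrichment of 3.62. The third was on chromosome 1 from 250300928 to 250301369, at 100.5 kb with a fold enrichment of 5.79. Just outside the limit, peaks on chromosome 2 from 113066773 to 113067100 and on chromosome 1 from 199661925 to 199662159 each had a neighbour at 99.8 kb and a fold enrichment of 4.13. The third outside peak, on chromosome 3 from 79612142 to 79612402, had its neighbour at 99.7 kb and a fold enrichment of 5.48. The fold enrichments of the outside peaks thus lay between those of the inside peaks.

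The width limit separated the members from few peaks. The widest members measured 992 bp, on chromosome 8 from 91338164 to 91339155 with a fold enrichment of 4.03, and 980 bp, on chromosome 12 from 13667651 to 13668630 with a fold enrichment of 8.27. The narrowest peaks that met the rule but for their width measured 1006 bp, on chromosome 14 from 85675935 to 85676940 with a fold enrichment of 5.87, and 1009 bp, on chromosome 2 from 184899837 to 184900845 with a fold enrichment of 5.13. Only 36 peaks of at least 1000 bp were as far from other peaks as the members. Their median width was 1343.5 bp, the widest measured 2916 bp, and their median fold enrichment was 6.61. These were 36 of 1478 wide peaks, while the members were 1338 of 15526 narrow peaks (8.62%).

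The members were short. Their median width was 292 bp (95% interval of the median 282 to 303 bp), and 50% of them measured between 218.25 and 418 bp. The smallest width in the list, 200 bp, was shared by 232 members (17.3%, 15.4 to 19.5%). Only 134 members (10.0%) measured over 600 bp. The summit, the base with the highest pileup, lay at a median of 47.8% of the way from the left edge to the right (45.9 to 49.7%). Its 25th and 75th percentiles were 30.4% and 64.9%, so the median does not place single summits at the middle. The medians of clustered and intermediate peaks were 48.4% and 48.0%.

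Fold enrichment, deposited by the authors as a linear ratio of stacked ChIP fragments to local background, had a median of 4.31 in the members (4.13 to 4.40). Its 10th and 90th percentiles were 3.34 and 5.50. In 260 members (19.4%, 17.4 to 21.6%) it was at least 5, as it was in 25.4% of all narrow peaks that could have been members. A q-value of at most 1e-05 was reached by 186 members (13.9%, 12.2 to 15.9%), against 18.9% of all such narrow peaks. Because the distances that chose the members come from the same calls, nothing is read from these shares.

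The number of stacked fragments behind each summit was solved from the fold enrichment and the p-value together. A typical member rested on few fragments. The median summit pileup was 11 fragments, where the lowest background of any peak, called the floor, was 1.42. At most 20 fragments were stacked in 1294 of the 1338 members, and more than 100 in 4. The background was at the floor in 677 members (50.6%, 47.9 to 53.3%), at 1.73 fragments in a further 283 (21.2%), and at 2.59 fragments in 108 (8.07%).

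At the floor, members differed from each other only by whole fragments. Of the 677 members there, 29 had 7 fragments, the fewest of any member. There were 103 with 8 fragments, 153 with 9, 152 with 10, 104 with 11 and 59 with 12. Together, 571 of the 677 (84.3%) had between 8 and 12 fragments, and the most was 21. A single fragment more or less moved the fold enrichment by a fixed step, from 4.13 with 9 fragments to 4.55 with 10 and 4.96 with 11. For 10 fragments the exact 95% Poisson interval was 4.80 to 18.4 fragments, equal to a fold enrichment of 2.40 to 8.02 over the floor. Most members therefore could not be ranked against each other at this depth.

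**Figure D2:**
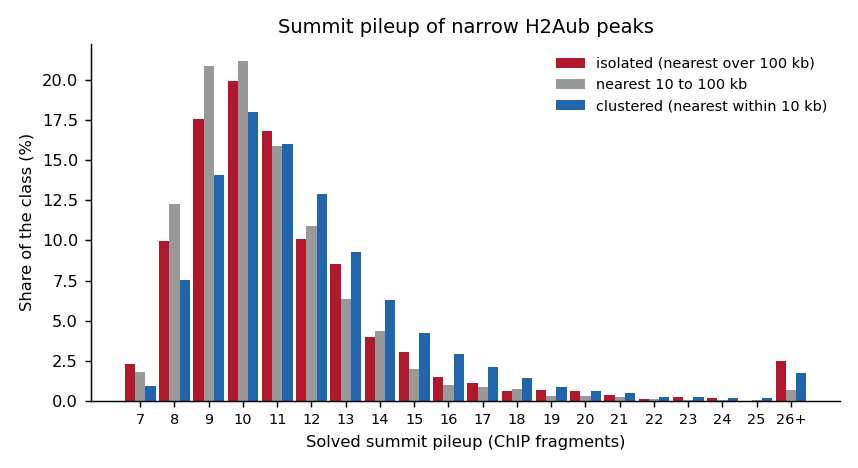
Share of each class of narrow peaks (y axis, %) by solved summit pileup (x axis, ChIP fragments; 26+ holds all larger values) for isolated, intermediate and clustered peaks. All 3 classes are highest at 10 fragments, and the clustered peaks in blue hold larger shares than the others from 12 to 18 fragments.

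Members were then set beside clustered narrow peaks, as a description only, since the distances that define both classes come from the same calls. The median fold enrichment of the 10990 clustered peaks was 4.55, against 4.31 in the members. The share at or above a fold enrichment of 5 was 28.6% in clustered peaks and 19.4% in members, a difference of -9.17 percentage points (95% Newcombe interval -11.4 to -6.81). A q-value of at most 1e-05 was reached by 21.8% and 13.9%, a difference of -7.90 points (-9.82 to -5.80). The smallest width was shared by 11.3% of clustered peaks and 17.3% of members, a difference of 6.07 points (4.05 to 8.27). The background was at the floor in 46.4% of clustered peaks and 50.6% of members, a difference of 4.20 points (1.37 to 7.03). The median pileup was 11 fragments in both. Clustered peaks are not independent of their neighbours, so these intervals are too narrow.

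These differences rested largely on clustered peaks with a neighbour within 1 kb. When intervals closer than 1000 bp were merged before the rule was applied, the shares with a q-value of at most 1e-05 became 14.8% in isolated and 13.3% in clustered peaks, a difference of 1.45 points (-0.581 to 3.63). Merged intervals that reached 1000 bp were no longer narrow and left the comparison, so joining was not the only change. The difference in the share with a fold enrichment of at least 5 became 0.521 points (-1.83 to 2.99), and that in the share at the floor turned to -0.976 points (-3.97 to 2.01). Among the 6589 narrow peaks with a neighbour within 1 kb, 27.9% (26.9 to 29.0%) had a q-value of at most 1e-05. With the nearest peak at 1 to 3 kb this share was 14.3% (12.9 to 15.7%), and at 3 to 10 kb it was 10.4% (9.14 to 11.9%). It was 10.4% (9.05 to 11.9%) at 10 to 30 kb and 11.2% (9.72 to 12.9%) at 30 to 100 kb. Members at 100 to 300 kb had 11.6% (9.67 to 14.0%). From 3 to 300 kb the share therefore stayed within its counting error.

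Beyond 300 kb the share was higher again. It was 16.5% (13.1 to 20.5%) in the 382 members whose nearest peak lay between 300 kb and 1 Mb. In the 97 members with no peak within 1 Mb it was 23.7% (16.4 to 33.1%), from 23 peaks. The median fold enrichment did not follow, as it was 4.31 (4.13 to 4.40) at 100 to 300 kb, 4.14 (4.13 to 4.40) at 300 kb to 1 Mb and 4.40 (4.13 to 4.70) beyond 1 Mb. The local background moved with the distance as well. It exceeded 2 times the floor in 5.70% (4.34 to 7.46%), 6.81% (4.69 to 9.79%) and 14.4% (8.80 to 22.8%) of these members. When only members at the floor were counted, the share with a q-value of at most 1e-05 was 9.47% (7.11 to 12.5%) at 100 to 300 kb and 14.0% (9.72 to 19.7%) at 300 kb to 1 Mb. Beyond 1 Mb it was 21.6% (11.4 to 37.2%), from 8 of 37 members. At equal background the values thus kept the same order, but their intervals overlapped.

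**Figure D3:**
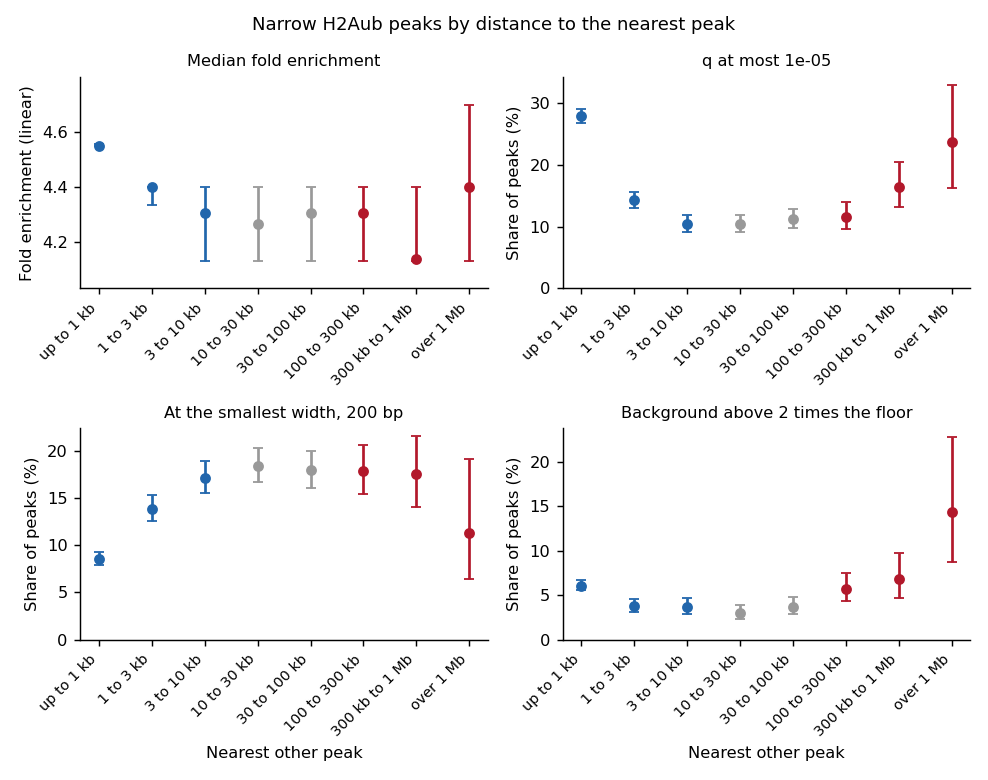
Narrow peaks by distance to the nearest other peak (x axis), with clustered peaks in blue, intermediate in gray and isolated in red. Panels show the median fold enrichment (linear, axis not from 0), the share with a q-value of at most 1e-05 (%), the share at the smallest width of 200 bp (%) and the share with a background above 2 times the floor (%). Bars are 95% intervals (order statistics for the median, Wilson for shares). The share with a q-value of at most 1e-05 is 27.9% within 1 kb, between 10.4% and 11.6% from 3 to 300 kb and 23.7% beyond 1 Mb.

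In fold enrichment and q-value, members differed less from intermediate than from clustered peaks. The median fold enrichment was 4.31 in both classes. A q-value of at most 1e-05 was reached by 10.8% of intermediate peaks, so members exceeded them by 3.11 points (1.03 to 5.32). A background above 2 times the floor was found in 3.35% of intermediate peaks and 6.65% of members, a difference of 3.31 points (1.91 to 4.88). Its part in the difference in q-values was not tested. Pileups of 21 or more fragments were found in 44 members (3.29%), 36 intermediate peaks (1.13%) and 322 clustered peaks (2.93%).

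The contrast with clustered peaks varied with width. Among peaks of 200 bp the median fold enrichment was 4.13 in all 3 classes, and a q-value of at most 1e-05 was reached by 3.45% of members (1.76 to 6.66%) and 1.78% of clustered peaks (1.18 to 2.68%). From 201 to 300 bp these shares were 12.3% and 12.5%, although the median fold enrichment was 4.13 (4.13 to 4.40) in members and 4.46 (4.40 to 4.52) in clustered peaks. From 301 to 400 bp the share was 9.22% in members (6.37 to 13.2%) and 17.2% in clustered peaks (15.7 to 18.7%). From 401 to 600 bp the share was 19.0% in members (14.4 to 24.6%) and 29.5% in clustered peaks (27.7 to 31.4%), and from 601 to 999 bp it was 38.8% (31.0 to 47.3%) and 51.9% (49.5 to 54.3%). In turn, at an equal pileup of 10 fragments over the floor, 152 members had a median width of 248 bp (226 to 268 bp) and 1042 clustered peaks one of 277 bp (266 to 288 bp). At 9 fragments the medians were 263 bp (245 to 291 bp) and 270 bp (258 to 280 bp). At 12 fragments they were 363 bp (298 to 472 bp) and 354 bp (337 to 374 bp), and at 13 fragments 442 bp (285 to 550 bp) and 371 bp (345 to 421 bp). Members also had the smaller median at 7, 8, 11, 14, 15 and 16 fragments. At 8 fragments the medians were 258 bp (240 to 283 bp) and 277.5 bp (267 to 285 bp). At 11 fragments they were 276 bp (234 to 331 bp) and 297 bp (286 to 315 bp). Members thus had the smaller median at most pileups from 7 to 16, and the larger only at 12 and 13. The intervals overlapped at each of them.

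The margin of each call was measured by taking fragments from the summit while the background was kept. With 1 fragment fewer, 6.95% of members (5.71 to 8.44%) no longer reached a -log10 p of 3.70, the lowest of all peaks, against 5.36% of clustered peaks (4.95 to 5.80%). With 3 fragments fewer, 44.1% of members (41.5 to 46.8%) and 35.7% of clustered peaks (34.8 to 36.6%) did. With 5 fragments fewer the shares were 76.5% (74.1 to 78.7%) and 68.1% (67.2 to 68.9%). Intermediate peaks had the highest shares at each step. These were 7.29% (6.44 to 8.24%), 47.4% (45.6 to 49.1%) and 81.3% (79.9 to 82.6%). A small margin was therefore not particular to the members.

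Isolation also depended on which weaker peaks were listed. At a q-value of at most 0.001, 748 of the 1338 members stayed in the list, and neighbours were found again among the peaks left. This gave 1224 isolated narrow peaks, of which 746 were members. The members were 60.9% of the isolated peaks of this stricter list, and these 746 were 55.8% of all members. At a q-value of at most 1e-05, 740 narrow peaks were isolated and only 181 of them were members (24.5% of the 740 and 13.5% of the members). The other 559 had become isolated because weaker neighbours were no longer listed, and 395 of them had been clustered in the full list. At this threshold, isolated peaks reached a fold enrichment of at least 5 more often than clustered ones, 91.6% against 87.8%, whereas in the full list they did so less often. At the floor, 12 fragments gave a -log10 q of 4.92, and 13 gave 5.78 with a fold enrichment of 5.79. Every floor peak kept here thus had a fold enrichment of at least 5. The floor held 45.4% of these isolated peaks and 40.3% of the clustered ones, so nothing is read from the turned sign. Which peaks counted as isolated therefore depended strongly on the peak threshold.

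The members with the highest fold enrichment were wider than most. The highest, on chromosome 10 from 14613174 to 14613856, was 683 bp wide. It reached a fold enrichment of 9.09 from 21 fragments (13.0 to 32.1) at the floor, and its nearest neighbour lay 122.9 kb away. The second, on chromosome 20 from 22882508 to 22883225, reached 8.80 from 23 fragments (14.6 to 34.5) and an empty stretch of 4398.7 kb on its right. A peak on chromosome 18 from 25751655 to 25752474 followed with a fold enrichment of 8.68 from 20 fragments (12.2 to 30.9). The fourth, on chromosome 19 from 59501765 to 59502609, reached 8.32 from 26 fragments (17.0 to 38.1) over a background of 2.24. The fifth was the 980 bp peak on chromosome 12 described above, resting on 19 fragments (11.4 to 29.7). As all 5 intervals overlapped, their order was not resolved. Their widths, 683 to 980 bp, all lay above the 90th percentile of the members, 598.9 bp.

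The order by -log10 q was led by other members. The highest -log10 q, 47.4, belonged to a peak of 213 bp on chromosome 1 from 30985728 to 30985940, with 503 fragments (460.0 to 548.9) over a background of 233.1 and a fold enrichment of 2.15. The next, on chromosome 9 from 12093858 to 12094171, had a -log10 q of 20.3 and 118 fragments (97.7 to 141.3) over a background of 38.0. The third, 202 bp wide on chromosome 4 from 61901717 to 61901918, had a -log10 q of 20.2 and a fold enrichment of 7.78 from 39 fragments (27.7 to 53.3) over 4.14. The fourth, also 202 bp wide, lay on chromosome 1 from 36361195 to 36361396. It had the most fragments of any member, 582 (535.7 to 631.3), the highest background, 373.0, and the lowest fold enrichment, 1.56. The fifth, on chromosome 2 from 79796073 to 79796330, had 69 fragments (53.7 to 87.3) over 17.3 and a fold enrichment of 3.83. Of these 5 peaks, 4 combined a short interval with a high background, and only the peak on chromosome 4 also had a high fold enrichment. The 20 highest members by fold enrichment and the 20 highest by -log10 q shared 10 peaks.

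A background above 10 times the floor, called input-rich here, was found in 9 members (0.673%, 0.354 to 1.27%). The share was 0.819% in clustered peaks and 0.156% in intermediate peaks (0.0668 to 0.365%). The other 5 input-rich members lay on chromosome 10 from 44825127 to 44825331, chromosome 14 from 4972268 to 4972488, chromosome 16 from 66363568 to 66363928, chromosome 18 from 51999845 to 52000177 and chromosome 19 from 5836525 to 5836964. The fold enrichment of the 9 ranged from 1.56 to 3.83 with a median of 2.67, and their widths from 202 to 440 bp. In these 9 members ChIP and input were high together, and how much of the signal was H2Aub was not tested.

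**Figure D4:**
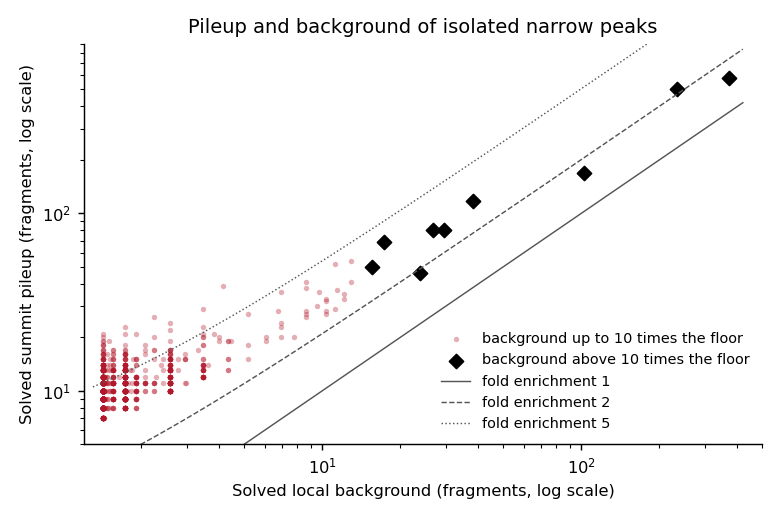
Solved summit pileup (y axis, fragments, log scale) against solved local background (x axis, fragments, log scale) for the 1338 isolated narrow peaks; lines mark fold enrichments of 1, 2 and 5, and black diamonds mark the 9 members with a background above 10 times the floor. Most members sit at backgrounds of 1.42 to 2.59 fragments, and the diamonds reach 582 fragments over a background of 373.0.

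The 5 members farthest from any other peak had fold enrichments between 2.92 and 4.55. The most remote, on chromosome 7 from 84540045 to 84540305, lay 5.69 Mb from its left and 5760.0 kb from its right neighbour. Its fold enrichment was 4.55, from 10 fragments (4.80 to 18.4) at the floor. On chromosome 4, a peak from 107358859 to 107359069 lay 5.41 Mb from the next, with a fold enrichment of 3.34 from 11 fragments (5.49 to 19.7). On chromosome 15, a peak from 78990237 to 78990436 lay 4.72 Mb from the next, with a fold enrichment of 3.01 from 15 fragments (8.40 to 24.7) over 4.32. The fourth, on chromosome 2 from 107216979 to 107217268, lay 4.53 Mb from the next, with a fold enrichment of 2.92. The fifth, on chromosome 11 from 25455990 to 25456316, lay 4.46 Mb from the next, with a fold enrichment of 3.72 from 8 fragments (3.45 to 15.8). None of these 5 reached a fold enrichment of 5 or a -log10 q above 3.34.

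The density of isolated narrow peaks varied less between chromosomes than that of all peaks. Dense groups add nothing to it, since the rule leaves out every peak with a neighbour within 100 kb. A smaller spread was thus partly set by the rule. Over chromosomes 1 to 20 there were 0.526 members per Mb (95% Poisson interval 0.498 to 0.555), against 6.70 peaks of any kind per Mb. The lowest density was 0.426 per Mb on chromosome 7 (0.327 to 0.546), and the highest was 0.738 on chromosome 19 (0.539 to 0.988), a ratio of 1.73 between them. For all peaks the ratio of the highest to the lowest chromosome was 4.40. Chromosome 10 had 14.2 peaks per Mb and chromosome 2 had 3.22, the extremes for all peaks. Their densities of members were 0.482 (0.361 to 0.630) and 0.466 (0.388 to 0.556), which differed by less than counting error. In 18 of 20 chromosomes the interval held the overall density of members. The exceptions, chromosome 19 and chromosome 17 with 0.704 per Mb (0.541 to 0.900), lay above it.

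The share of narrow peaks that were isolated ran opposite to peak density, to which the rule on distance ties it. It was lowest on chromosome 10, 3.78% (2.90 to 4.92%), and on chromosome 12, 4.33% (3.03 to 6.16%). It was highest on chromosome 17, 17.5% (14.0 to 21.8%), followed by chromosome 15 with 16.6% (13.0 to 20.8%) and chromosome 2 with 16.4% (13.9 to 19.2%). Densely marked chromosomes also had less room for an isolated peak. The sequence more than 100 kb from every peak that was not a member made up 76.8% of the span of all 20 chromosomes, 56.2% of chromosome 10 and 87.1% of chromosome 2. Per Mb of this sequence there were 0.857 members on chromosome 10 (0.642 to 1.12) and 0.535 on chromosome 2 (0.445 to 0.639). The sequence counted is itself set by the same calls and the same distance. Both chromosomes were taken as the extremes of peak density, so nothing is read from the difference between them. The lowest value was that of chromosome 2, and the highest was 1.07 on chromosome 19 (0.780 to 1.43). Between chromosomes the median fold enrichment of members varied only from 4.13 to 4.55, by the value of 1 fragment at the floor.

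**Figure D5:**
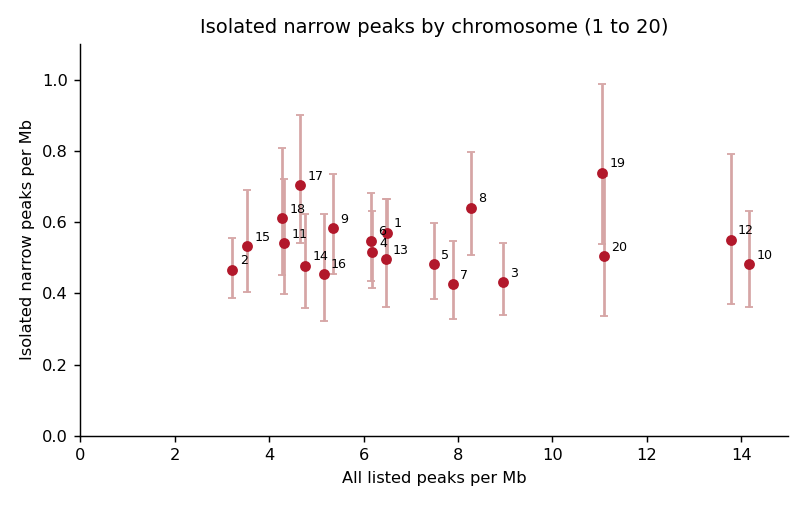
Isolated narrow peaks per Mb (y axis) against all listed peaks per Mb (x axis) for chromosomes 1 to 20, labelled by number; bars are exact 95% Poisson intervals of the isolated peaks. All peaks range from 3.22 to 14.2 per Mb, while isolated peaks stay between 0.426 and 0.738 per Mb.

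Members lay less often near the ends of chromosomes than clustered peaks. The outermost parts of each chromosome, 20% of the span between the first and the last peak over both ends, held 286 of the 1338 members (21.4%, 19.3 to 23.7%). They held 28.0% of clustered peaks (27.2 to 28.9%) and 26.8% of intermediate peaks (25.3 to 28.4%). These intervals take peaks as independent of their neighbours and are too narrow, so none of the shares is tested against 20%. The rule leaves out peaks where others are dense, so a lower share of members in these parts was partly set by it.

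When peaks at most 100 kb apart were joined into groups, chromosomes 1 to 20 held 3483 groups, of which 1393 (40.0%) were a single peak. Of these single peaks, 1338 were the members, 36 were at least 1000 bp wide and 19 were the first or last of a chromosome. At the other end, 162 groups of at least 20 peaks held 33.6% of all peaks on these chromosomes, and the largest held 141. Members were 1338 of these 3483 groups, so in any order many of them would stand next to another member. Whether they did so more often than this share gives was not tested. For 270 members the next peak on both sides was also a member, for 656 on 1 side, and for 412 on neither.

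The longest string of members without another peak between them, chosen after its values were seen, held 11 peaks on chromosome 8 from 25903980 to 31661971, a stretch of 5.76 Mb. Their fold enrichments ran from 3.72 to 5.79 with a median of 4.55, and their pileups from 8 to 17 fragments. The most prominent of the string was a peak from 27776383 to 27777345, 963 bp wide, with 13 fragments at the floor. The weakest, from 31040128 to 31040327 and from 31548672 to 31548919, had 8 fragments each. Of the 5 Mb windows, also inspected after the fact, chromosome 11 from 30000001 to 35000000 held the most members, 10 among 56 peaks. A window with few other peaks lay on chromosome 5 from 70000001 to 75000000, with 8 members among 17 peaks.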

How the data were processed

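Per the labels, tissue was crosslinked, chromatin was sheared by sonication, and PCR-amplified libraries were size-selected. The submitters' processing notes name bcl2fastq 2.17, Trimmomatic 0.33, Bowtie 1.1.2 and MACS2 2.1.0 without their roles, and name the build as hg38. The positions contradict that build, since 363 peaks lie beyond the ends of hg38 chromosomes 1, 18 and 19. The gene table at hand is of another rat assembly, GRCr8, and 712 peaks, 26 of them members, end beyond its last gene on 9 chromosomes. Peaks are therefore named by position in the deposited list, 1-based, and genes and sequence at peaks were not analysed here. Handling of duplicate reads and calling settings were not given in the sources used here.

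The authors deposited 1 peak list, with a score, a linear fold enrichment ratio, and p- and q-values as −log10 for each summit. The score was the −log10 q times 10 without its decimals, and was not used. The smallest −log10 q was 1.30. The list holds no counts, so the depth of both libraries is unknown. Pileup and background were solved from the deposited fold and p, taken as (pileup + 1) / (background + 1) and as the Poisson upper tail, as MACS2 defines them. Whole pileups up to 4000 were searched. All 17207 peaks met the deposited −log10 p within 0.002. The solver was tested on simulated data and recovered the pileup in 3000 of 3000 peaks. The class assignment was right for 300 of 300 simulated peaks.

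Intervals are 95% Wilson for shares, Newcombe for differences of shares, exact Poisson for pileups and densities, and order statistics for medians. Without molecular identifiers, PCR copies cannot be told from separate molecules, and the intervals hold counting error alone. Peaks were named by rule: the 5 highest by fold, by −log10 q and by distance, the 3 nearest on each side of the 100 kb limit, and the 2 nearest on each side of the width limit, with the lowest and highest chromosomes. The input-rich peaks, the longest string and the 5 Mb windows were added afterwards. The members, classes and comparisons were chosen with earlier results of these data known. Python 3.11.15, NumPy 2.4.6, pandas 2.3.3, SciPy 1.17.1, statsmodels 0.14.6 and matplotlib 3.10.9 were used.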

Additional observations from a re-analysis of the deposited data

How the results depend on the processing

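Under 11 alternatives, 78 other values were computed for 8 results; 46 stayed within the counting interval of the reported value (counts within a factor of 1.5, pileup differences moved by less than 1 fragment, densities within 1 SD over chromosomes), 28 moved and 4 changed sign. Differences are isolated minus clustered. With an isolation distance of 50 kb there were 2139 isolated peaks, a median of 0.861 per Mb over chromosomes in place of 0.524, and the median pileup differed by -1 fragment; with 200 kb there were 728 peaks and 0.304 per Mb, and the share at the floor differed by 0.169 points. A width limit of 500 bp gave 0.423 per Mb, a pileup difference of -1 fragment, and differences of -4.45 points in the share with a q-value of at most 1e-05 and -6.79 points in that with a fold enrichment of at least 5. With peaks of q at most 0.001 the median fold enrichments differed by 0. With q at most 1e-05 there were 740 isolated peaks and 0.295 per Mb, the median fold enrichment differed by -0.0804, the pileup by -1 fragment and the share at the smallest width by 2.12 points, while the share with a fold enrichment of at least 5 turned to 3.81 points. Clustered peaks taken within 1 kb gave differences of -1 fragment, -14.0 points for q, -15.5 points for fold enrichment, 7.48 points for the floor and 8.76 points for the smallest width. After merging of intervals closer than 1000 bp, the medians differed by 0 in fold enrichment and by 1 fragment in pileup, the smallest width by 2.06 points, and the shares for q, fold enrichment and floor turned to 1.45, 0.521 and -0.976 points. Among peaks of 200 to 300 bp the differences were -0.310 points for q and -4.50 points for fold enrichment. At the floor they were 0 in the median fold enrichment and -11.7 points in the share of at least 5. Fewer or other peaks entered under each of these settings, and beyond that the cause was not tested. Leaving out input-rich peaks and adding chromosome X moved none of the results computed. No paired analysis was possible because the series holds a single ChIP and a single input library, and no replicate could be left out. With a median of 11 fragments at a summit, depth limits the ranking of single members.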
